A study of Abies pinsapo with 12 samples.

Results

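The transcripts described here were set apart in August in the needles of Spanish fir trees (Abies pinsapo) that grew in thinned stands under a shading mesh. A transcript was taken where both shaded August libraries lay at least 1.5 times above, or at least 1.5 times below, all 4 August libraries of the other treatments, and where the means of the control and thinned libraries were within 1.5-fold of each other. It also had to reach 10 in at least 2 of the 6 August libraries, to average under 1000 over all 12 libraries, and to have August and May values that overlap. Of 329801 transcripts in the table, 15777 reached 10 in 2 August libraries, and 150 of these met the rule. In 35 of them the shaded trees were higher and in 115 they were lower. They were thus chosen by their August values, and the May values took part through the level limit and the overlap of months.

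The samples are needles of adult trees of the Sierra de las Nieves, sampled in August 2016 and in May 2017 under 3 field treatments with 3 plots of 100 m2 each. Control trees stood in dense, unthinned forest, with strong competition for light and for water. Thinned trees stood where the density had been lowered in 2004. Shaded trees stood in a thinned plot beneath a mesh that imitated the light of the control stands, so that light was low while competition for water was low too. Each treatment and month has 2 libraries, 12 in all, and no label says that the 2 came from separate trees or plots, so the spread between them may be technical. Nor do they say whether the May needles came from the trees of August. Month, year and any handling in batches cannot be told apart.

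In a dense canopy a conifer needle receives less light, and of another colour, than in the open. Plants sense this with photoreceptors and adjust the genes of photosynthesis, of pigment and protective phenolic compounds, and of growth. The treatments were laid out to separate light from water: control and shaded trees shared low light, while thinned and shaded trees shared low competition for water. A transcript that the mesh alone sets apart follows neither contrast, since the shaded trees then differ from control and thinned trees in the same direction. The transcripts carry assembly identifiers without gene names, and no annotation was used, so no function is given for any of them, the needle label was not checked against marker genes, and no sequence is printed. In needles taken whole, fewer cells of a type and less RNA per cell cannot be told apart.

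Values are scaled TPM, a transcript's share of its library corrected for its length and multiplied by 1 factor per library. Sequencing depth is unknown, so no counting interval is given. Libraries listed between 81710 and 117855 transcripts above 0, except thinned May replicate 1, which listed 208032. The May libraries did not group by treatment. Over the 19726 transcripts at 10 or more in at least 2 of the 12 libraries, clustering by correlation was cut at 2 sets, a number fixed beforehand. Control May replicate 1, thinned May replicate 2 and shaded May replicate 2 formed 1 set, and control May replicate 2, thinned May replicate 1 and shaded May replicate 1 the other. The sets were not clean. Shaded May replicate 2 correlated at 0.861 with control and 0.714 with thinned of its own set, but at 0.83 with shaded and 0.817 with control of the other. On the log2 scale the 2 thinned May libraries correlated at 0.407 with each other across transcripts, the lowest value of any treatment in May, against 0.729 for control and 0.83 for shaded. What the 2 sets stand for is not given by the labels, and an unlabelled batch, exchanged labels and spread within treatments cannot be told apart, which limits every May value of a treatment given here. The main May comparisons are therefore also given without 1 library or within each set.

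The August values chose the transcripts, so they are described without a test. The 35 higher transcripts are 0.222% and the 115 lower ones 0.729% of the 15777 transcripts that could be chosen. The same rule with the control trees in the place of the shaded ones gave 357 higher and 263 lower transcripts, and with the thinned trees 50 and 79. Among the 3 treatments, shaded trees had the shortest list on the higher side. The step that asks for overlapping months removed 8 transcripts from the higher list and 0 from the lower one, and the level limit removed 0 from either. The May values therefore took no part in the choice of the 115 lower transcripts.

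**Figure D1:**
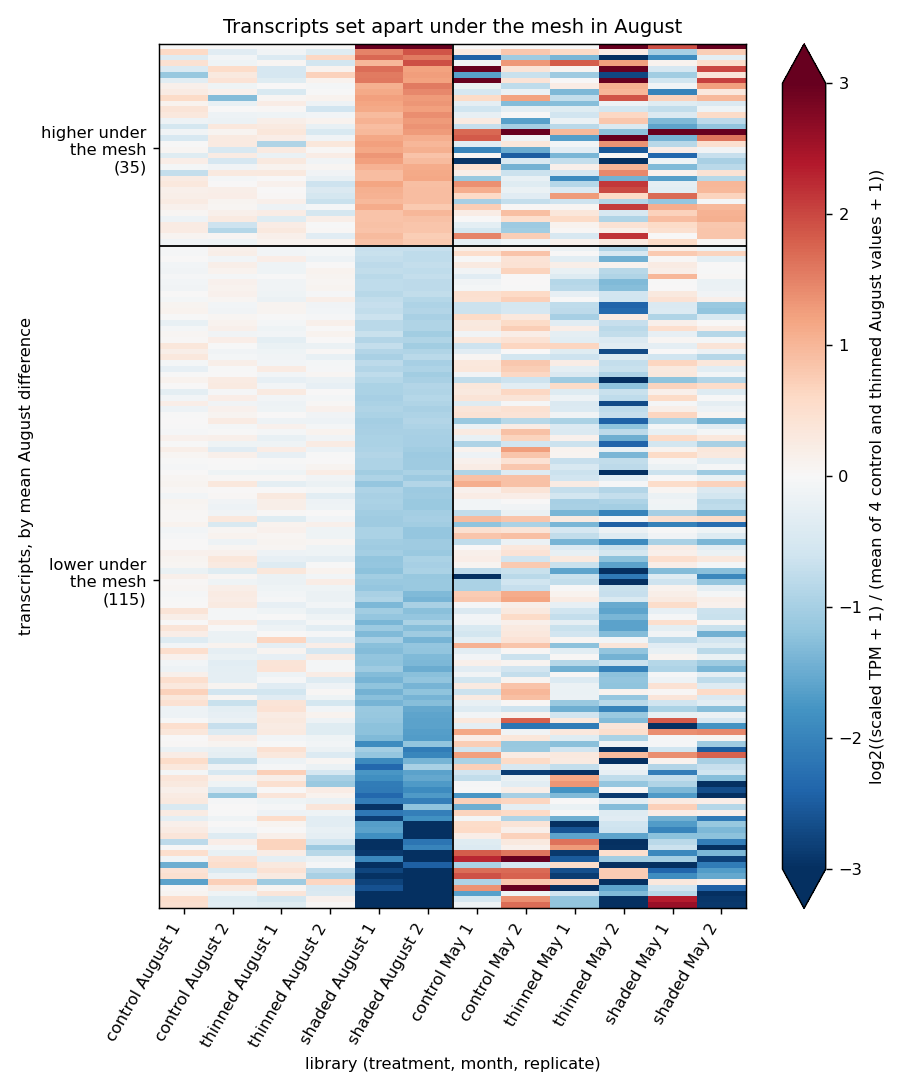
Each line is a transcript and each column a library, the 6 August libraries on the left and the 6 May libraries on the right. Colour gives log2 of the value plus 1 over the mean of the 4 control and thinned August values plus 1, with red above and blue below, cut at 3 in either direction. The 35 higher transcripts stand at the top and the 115 lower ones at the bottom, and in May the thinned replicate 2 column is the bluest of the lower block.

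Most of the lower transcripts were moderately lower under the mesh and otherwise steady in August. The mean of the 4 control and thinned values was 2.23 times that of the shaded trees in the median (range 1.65 to 117 over the 114 with a shaded value above 0). In 86 of the 115 the ratio of these means was 2 or more, counting 1 transcript listed at 0 in both shaded libraries, and in 22 it was 4 or more. The coefficient of variation over the 4 control and thinned libraries was 14.7% in the median, and in 70 of the 115 these 4 values lay within 1.5-fold of each other, which a rule that keeps the means close favours. The level in control and thinned trees ranged from 8.81 to 748 scaled TPM with a median of 32.3, and 22 of the 115 averaged 100 or more.

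The steadiest example was TRINITY_DN18177_c0_g1, named after its values had been seen. It was at 46.8 and 47.3 scaled TPM in control, 46.6 and 47.0 in thinned and 24.1 and 22.0 in shaded trees in August. The 4 libraries outside the mesh were nearly equal, and both shaded libraries lay at about the same lower level. TRINITY_DN2934_c1_g1, also named after its values had been seen, was at 39.2 and 40.0 in control, 38.8 and 43.1 in thinned and 20.0 and 20.0 in shaded trees. Here too the shaded libraries were nearly equal.

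The widest gaps belonged to a few transcripts that were nearly missing under the mesh. TRINITY_DN2914_c0_g1 was at 89.7 and 48.1 scaled TPM in control, 43.1 and 68.5 in thinned, and 0.465 and 0.627 in shaded trees in August. Every library outside the mesh was more than 40, and both shaded libraries were below 1. In May the shaded libraries were at 325 and 7.39, the control libraries at 44.3 and 162 and the thinned libraries at 26.8 and 0.809. The shaded trees then held both a value above all other libraries and a low one, so the August gap had no counterpart in May. TRINITY_DN2914_c0_g2, of the same assembly component, had nearly the same values, from 56.0 to 102 outside the mesh and 0 and 1.24 under it in August.

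TRINITY_DN21053_c0_g3 was at 21.4 and 18.2 scaled TPM in control, 25.9 and 14.6 in thinned, and listed at 0 in both shaded libraries in August. In May the shaded libraries were at 10.8 and 0, control at 5.84 and 18.1 and thinned at 13.0 and 7.40, so the groups overlapped.

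Some strongly lower transcripts had high values in control trees in May, as most of the lower list did. TRINITY_DN4581_c0_g3 was at 352 and 212 scaled TPM in control, 288 and 137 in thinned and 32.6 and 22.2 in shaded trees in August. In May it was at 872 and 751 in control, 32.3 and 350 in thinned and 63.9 and 96.0 in shaded trees. Both control libraries lay above the other 4 May libraries, and the shaded libraries lay between the thinned ones. TRINITY_DN11133_c0_g3 was at 40.5 and 48.0 in control, 41.1 and 28.1 in thinned and 5.64 and 0.539 in shaded trees in August, and at 102 and 356, 4.07 and 12.5, and 26.2 and 6.50 in May. Its shaded and thinned libraries overlapped in May, well below control. The same component held the most lower transcripts, 3. Its TRINITY_DN11133_c0_g4 averaged 104 ± 41.8 (SD, n = 4) outside the mesh and 10.3 ± 5.87 (SD, n = 2) under it in August, and TRINITY_DN11133_c0_g2 averaged 394 ± 97.4 and 68.9 ± 56.9.

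TRINITY_DN41976_c0_g1 combined a wide gap with close replicates. It was at 92.8 and 76.3 scaled TPM in control, 69.7 and 71.0 in thinned and 16.8 and 17.8 in shaded trees in August. In May the shaded libraries were at 90.2 and 86.7, between control at 125 and 118 and thinned at 76.0 and 58.5, with no overlap among the 3 treatments. The shaded trees thus moved from the lowest place in August to the middle in May.

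**Figure D2:**
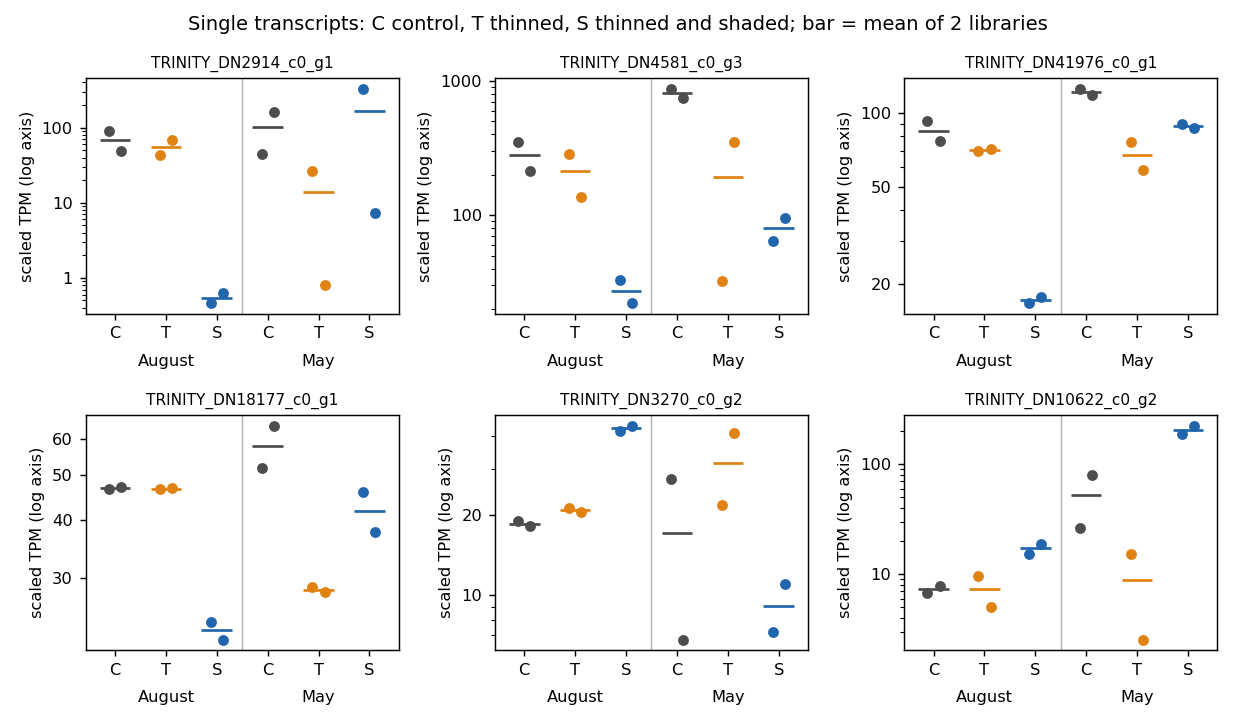
Scaled TPM on a log axis for 6 transcripts, each point a library and each bar the mean of 2 libraries, with August on the left and May on the right of each panel. C is control, T thinned and S thinned and shaded. The first 4 panels are lower and the last pair higher under the mesh in August, and TRINITY_DN41976_c0_g1 goes from 16.8 and 17.8 under the mesh in August to 90.2 and 86.7 in May.

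The most abundant lower transcripts had ratios of means from 2.10 to 2.26, close to the median of the list. TRINITY_DN3776_c0_g1 was at 752 and 889 scaled TPM in control, 635 and 714 in thinned and 287 and 385 in shaded trees in August. In May its highest value, 1066, and 775 belonged to the shaded trees, against 689 and 828 in control and 618 and 244 in thinned trees. TRINITY_DN743_c1_g1 was at 627 and 564 in control, 544 and 716 in thinned and 283 and 282 in shaded trees in August, and its shaded May values, 399 and 268, lay within the range of the other May libraries. TRINITY_DN3186_c0_g2 averaged 574 ± 124 (SD, n = 4) outside the mesh and 254 ± 23.0 (SD, n = 2) under it. TRINITY_DN4885_c1_g3 averaged 616 ± 125 and 293 ± 32.3, and in May both of its shaded libraries, at 881 and 767, were above the other 4, of which the highest was 757.

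The 115 lower transcripts fell in 83 components, where 63 had at least 1 other lower transcript beside them. In the 30 components with exactly 2 lower transcripts, the 2 profiles correlated over the 12 libraries at a median r of 0.994 (lowest 0.909), and in 28 at 0.95 or more. Such pairs may be copies or fragments of the same gene between which reads are shared, so the number of separate genes is smaller than the number of transcripts. Of 29 further transcripts of these components that reached 10 in 2 August libraries, 21 had a shaded August mean below that of the other libraries and 2 were apart by the fold without meeting the rest of the rule. The same share over all transcripts that could be chosen was not computed, and the August values behind it also chose the list. No component held transcripts of both directions. Lists this short leave little room for a shared component, so nothing is read from this.

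The 35 higher transcripts belonged to 32 components, with a median of 20 and 22.2 scaled TPM in the shaded August libraries against 19.5 and 18.8 over the 15777 transcripts. Their shaded August mean ranged from 11.5 to 408 scaled TPM with a median of 22.8, and 16 of the 35 averaged under 20. Over the 34 with values outside the mesh, the mean of the shaded libraries was 1.82 to 3.37 times that of the others, with a median of 2.28. Outside the mesh their median coefficient of variation was 25.4%. The rule took the values outside the mesh as the low side here and as the high side in the lower list. Their median level was 10.4 scaled TPM here and 32.3 there, so the evenness of the lists is not compared.

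TRINITY_DN27166_c0_g3 had the widest gap, at 16.8 and 13.7 scaled TPM in shaded trees and listed at 0 in the other 4 August libraries. In May it was at 19.2 in thinned replicate 2, at 2.83 and 11.3 in shaded trees and listed at 0 in the other 3. In May it was thus also present outside the mesh, in 1 library. TRINITY_DN31886_c0_g2 was at 5.15 and 3.895 in control, 5.69 and 4.13 in thinned and 11.9 and 13.3 in shaded trees in August, and at 4.11 or less in every May library. TRINITY_DN1279_c0_g2 was at 8.54 and 10.8, 8.34 and 18.1, and 39.9 and 35.7 in August, and at 9.17 or less in May.

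TRINITY_DN3270_c0_g2 was the most even of the higher transcripts, at 19.1 and 18.2 scaled TPM in control, 21.3 and 20.5 in thinned and 41.8 and 43.8 in shaded trees in August. In May the order turned in part, with 27.5 and 6.76 in control, 21.9 and 41.2 in thinned and 7.25 and 10.95 in shaded trees. Its shaded libraries then lay below both thinned libraries and overlapped with control. TRINITY_DN3270_c0_g1, of the same component, followed it, at 44.7 and 52.6 in shaded trees and from 18.6 to 23.9 in the others in August.

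The most abundant higher transcript was TRINITY_DN1798_c0_g1, at 222 and 159 scaled TPM in control, 164 and 168 in thinned and 346 and 470 in shaded trees in August. Its May values, 133 and 266 in shaded trees and from 120 to 276 in the others, overlapped. TRINITY_DN1252_c0_g2 was at 258 and 213 under the mesh and from 77.0 to 136 outside it in August. In May it ran from 1.45 in thinned replicate 2 to 102 in shaded replicate 1, with overlapping groups. TRINITY_DN2183_c0_g1 was at 143 and 202 under the mesh against 62.5 to 75.8 outside it, and TRINITY_DN6606_c0_g1 at 209 and 177 against 46.5 to 112. In both the shaded May libraries lay on either side of other treatments' values.

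The threshold cut through a continuous range. Just inside it on the higher side stood TRINITY_DN2336_c0_g1, whose nearest shaded value was 1.501 times the nearest other August value, and TRINITY_DN6183_c0_g1 at 1.502 times. Just outside stood TRINITY_DN2262_c3_g1 at 1.495 times and TRINITY_DN307689_c0_g1 at 1.488 times. On the lower side TRINITY_DN16855_c0_g2 and TRINITY_DN6586_c0_g1 were inside at 1.503 times each, and TRINITY_DN13734_c0_g1 at 1.497 times and TRINITY_DN2126_c0_g1 at 1.491 times were outside.

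The May libraries bear on whether the mesh set the same transcripts apart a second time, in libraries that had not fixed the direction. With a fold of 1.5 the counts cannot tell, since few transcripts of any kind met it. In May, 0 of the 35 higher transcripts had both shaded libraries 1.5 times above all others with control and thinned means close, and 0 of the 115 lower transcripts had them 1.5 times below; over the 15777 transcripts these shares were 0.38% and 0.26%. The whole rule applied to the May libraries listed 68 higher and 39 lower transcripts, and it shared 0 with the August lists in either direction. Lists this short out of 15777 transcripts leave little room for overlap, so that nothing is read from these counts of 0. At any distance, both shaded May libraries were above the other 4 in 5 of the 35 higher transcripts (14.3%, against 6.53% of the 15777) and below them in 2 of the 115 lower transcripts (1.74%, against 6.72%). Both counts moved with the fold and the floor used, and the second was 13 without thinned May replicate 1, 7 without thinned May replicate 2, 14 without shaded May replicate 1 and 4 without shaded May replicate 2. The first was 11 without shaded May replicate 1 and 8 without shaded May replicate 2. With a library left out, fewer values have to be passed, so such counts can rise in any list. The shares of the 15777 were not computed for these settings, and nothing is read from the rise.

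Differences between treatments in May were tested with limma on log2(scaled TPM + 1), all 12 libraries in the fit and p-values adjusted over the 19726 transcripts. Shaded trees were compared with the mean of control and thinned trees. No transcript of the whole table passed an adjusted p of 0.05, which leaves the background at 0%, and 1055 transcripts (5.35%) had an unadjusted p under 0.05. Among the higher transcripts 6 of 35 had one, 5 of them higher under the mesh, where 3.14% of all transcripts were. Among the lower ones 14 of 115 had one. Of these, 8 were below the mean of the other treatments, where 2.21% of all transcripts were, and 6 above it, where 3.14% were. Not all of the 8 lay below thinned trees. In TRINITY_DN12715_c0_g1 shaded and thinned libraries overlapped, with control far above both. The 8 are not read as a return of the August difference. The smallest adjusted p of any member was 0.782. The median difference was 0.12 log2 units in the higher list and 0.06 in the lower list, against -0.03 over all tested transcripts. The sign of both medians turned with the library left out. By the fitted difference without thinned May replicate 1, 76 of the 115 lower transcripts were higher under the mesh, opposite to August. Of the 35 higher ones, 19 were lower in that fit. Over all tested transcripts 52.3% were lower in it, so the 19 lay near that share and nothing is read from them. Its calls, given next, were not split by direction within the lists, so they are not read as a return of the August difference. Without thinned May replicate 1, the higher list's median was -0.19 and the lower list's 0.17, and 624 transcripts (3.16%) passed the adjusted threshold, 3 of the higher and 10 of the lower list among them, with replicate 2 as the lone thinned library, assumed to vary like the others. Without thinned May replicate 2 the medians were 0.42 and -0.10 and 0 passed. Without shaded May replicate 1 they were 0.34 and -0.10, and without shaded May replicate 2 they were -0.30 and 0.25. The 95% confidence interval, unadjusted, extended 0.75 log2 units each way for the median transcript, and was narrower or wider for others.

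The clearest May difference among the higher transcripts was in TRINITY_DN10622_c0_g2. It was at 187 and 223 scaled TPM in shaded trees, 26.2 and 79.6 in control and 15.3 and 2.55 in thinned trees in May. Both shaded libraries were more than 2 times the highest other value. Its August values were far lower, at 15.3 and 18.9 under the mesh and from 5.01 to 9.56 outside it. The May difference was 3.44 log2 units (SE 0.62, 95% confidence interval 2.02 to 4.87 before adjustment, limma adjusted p = 0.782). Over the fits without 1 library it ran from 2.89 to 3.995.

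In 4 further higher transcripts, of 3 components, both shaded libraries were on top in May. TRINITY_DN6183_c0_g1 was at 223 and 248 in shaded trees, 118 and 167 in control and 174 and 62.7 in thinned trees (0.95 log2 units, SE 0.38, limma adjusted p = 0.782). In August it had been at 211 and 215 under the mesh, nearly the same level as in May. TRINITY_DN2336_c0_g1 was at 14.6 and 19.1 in shaded trees and from 4.47 to 11.8 in the others, with a difference of 0.99 (SE 0.32). Its August values under the mesh were 19.4 and 19.1, and TRINITY_DN2336_c0_g2 of the same component did likewise. TRINITY_DN11533_c0_g1 was at 5.66 and 4.37 against 3.54 or less, with a difference of 1.64 (SE 0.59). These 3 differences had an adjusted p of 0.782 by limma. Over the fits without 1 library they ran from 0.59 to 1.31 in TRINITY_DN6183_c0_g1 and from 0.81 to 1.17 in TRINITY_DN2336_c0_g1. In TRINITY_DN11533_c0_g1 the range was 1.09 to 2.18.

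Of the lower transcripts, 2 had both shaded libraries at the bottom in May. TRINITY_DN9544_c0_g1 was at 7.14 and 8.39 in shaded trees, 10.5 and 17.6 in control and 13.5 and 12.3 in thinned trees (-0.70 log2 units, SE 0.32, limma adjusted p = 0.782). TRINITY_DN17936_c0_g1 was at 8.35 and 7.11 in shaded trees, 17.9 and 17.1 in control and 8.36 and 9.94 in thinned trees (-0.65, SE 0.20, adjusted p = 0.782 by limma). Its upper shaded value lay 0.01 below the lower thinned one, so the 2 treatments touched.

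A different order of the treatments ran through the lower transcripts in May, one that the rule had limited in August. Control and thinned trees had been held within 1.5-fold of each other in August, yet in May the thinned trees were below the control trees in 107 of the 115 by the fitted difference, with a median of -0.93 log2 units (quartiles -1.18 and -0.70). Over all 19726 transcripts the median was -0.09 and 59.3% were below 0. No transcript of the list or of the table passed the adjusted threshold (0% called by limma, smallest adjusted p 0.243 in the list), while 64 of the 115 had an unadjusted p under 0.05, all lower in thinned trees, against 8.51% of all transcripts in either direction and 7% in that one. In 76 of the 115 (66.1%) both thinned May libraries lay below both control libraries, against 20.4% of the 15777. The transcripts of a list share components and libraries, so these counts are not independent observations.

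**Figure D3:**
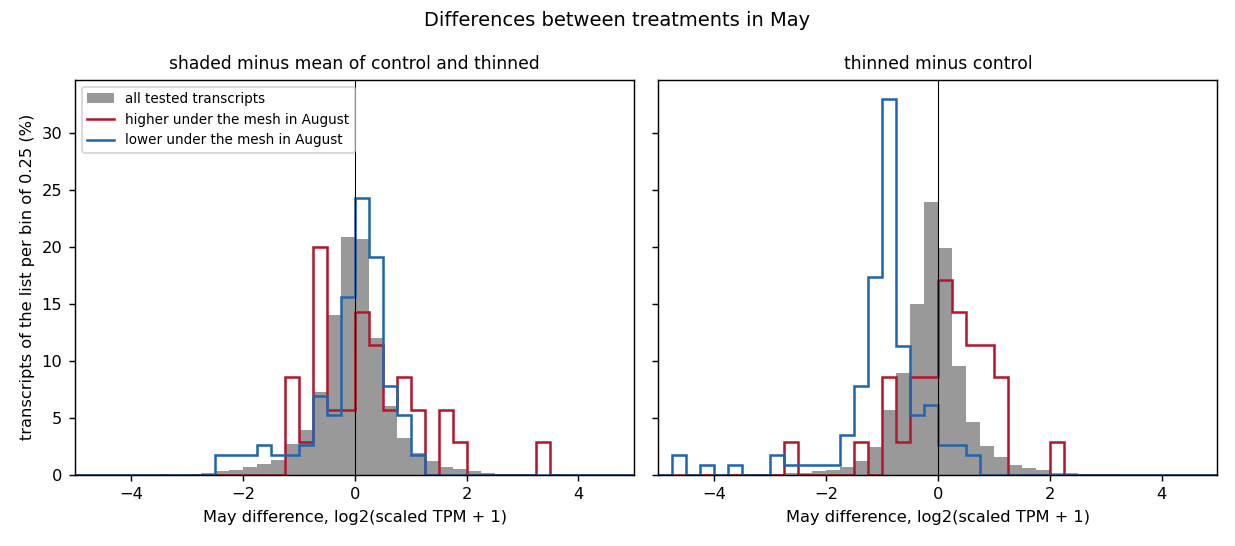
Differences in May on the log2(scaled TPM + 1) scale, shaded minus the mean of control and thinned on the left and thinned minus control on the right, as the share of each list per bin of 0.25. Grey is all tested transcripts, red the 35 higher and blue the 115 lower ones. On the left the lower list lies around 0, with a median of 0.06, and on the right it lies mostly below 0, with a median of -0.93.

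This difference did not depend on a single library. The median of the lower list was -1.17 without thinned May replicate 1 and -0.59 without replicate 2, and over all fits without 1 library it stayed between these values. Within the 2 sets of May libraries, with 1 library per treatment, the thinned library was below control in 105 of 115 (median -1.13, over all tested transcripts -0.03) in the set of thinned replicate 2, and in 99 of 115 (median -0.72, over all -0.17) in the set of thinned replicate 1. Quantile normalization gave a median of -0.80 and TPM without the library factor -0.94. Without thinned May replicate 1, 39 of the 115 passed the adjusted threshold, against 3.67% of all transcripts, with replicate 2 again as the lone thinned library. That library was the lowest of the 6 in 75 of the 115 (65.2%, against 35.7% of the 15777), and control replicate 2 the highest in 64 (55.7%, against 25.2%).

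The transcripts with the smallest p in this comparison, taken 1 per component and named after their values had been seen, were all lower in thinned trees, with no overlap between thinned and control libraries. TRINITY_DN1690_c0_g3 was at 75.7 and 75.5 scaled TPM in control, 26.9 and 32.8 in thinned and 41.1 and 35.6 in shaded trees in May. The 3 treatments did not overlap, with the shaded trees in the middle. Thinned trees were lower by 1.32 log2 units, a difference of -1.32 (SE 0.18, unadjusted p = 6.5e-05, limma adjusted p = 0.243). TRINITY_DN18177_c0_g1, so even in August, was at 51.8 and 64.1 in control, 28.6 and 27.9 in thinned and 46.1 and 37.7 in shaded trees (-1.003, SE 0.18, limma adjusted p = 0.365). TRINITY_DN2934_c1_g1 was at 49.0 and 74.6, 29.4 and 22.9, and 34.4 and 38.5 (-1.19, SE 0.23, adjusted p = 0.379 by limma). TRINITY_DN9782_c0_g1 was at 124 and 135 in control, 73.0 and 53.0 in thinned and 132 and 116 in shaded trees (-1.05, SE 0.21). In this last one shaded and control trees overlapped and both lay above thinned trees.

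The largest difference among them was in TRINITY_DN12715_c0_g1, at 254 and 573 scaled TPM in control, 8.42 and 24.97 in thinned and 25.4 and 6.75 in shaded trees in May (-4.61 log2 units, SE 0.90, limma adjusted p = 0.379). Both control libraries lay far above the other 4, among which shaded and thinned trees overlapped. In August it had been at 49.6 and 70.9 in control, 43.2 and 46.7 in thinned and 13.1 and 1.55 in shaded trees.

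Shaded trees took the middle place in May in most lower transcripts. The May means ran control, shaded, thinned from high to low in 68 of the 115 (59.1%), against 21.1% of the 15777. Control had the highest mean in 87 (75.7%, against 37.9%) and thinned the lowest in 85 (73.9%, against 39.9%). Both shaded libraries were below both control libraries in 55 of the 115 (47.8%, against 24.6%) and above both thinned libraries in 53 (46.1%, against 21.4%). Within each set of May libraries the shaded library was below control in 90 and in 93 of the 115, where 59.8% and 55.4% of all tested transcripts were. Shaded trees thus stood between the other treatments, with a median difference near 0 from their mean.

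**Figure D4:**
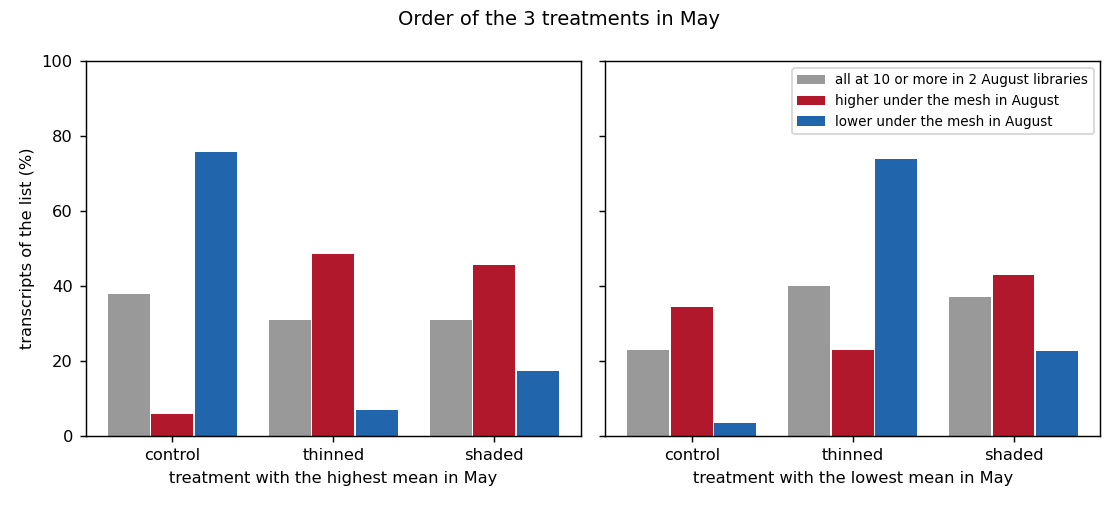
Share of each list in which a treatment had the highest mean (left) or the lowest mean (right) of the 3 in May, in percent. Grey is all 15777 transcripts at 10 or more in 2 August libraries, red the 35 higher and blue the 115 lower ones, and in the lower list control is the highest in 75.7% and thinned the lowest in 73.9%.

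The higher transcripts had no order in May that most of them shared. The commonest ran thinned, control, shaded from high to low, in 14 of the 35 (40%, against 20.4% of the 15777). Shaded trees had the lowest mean in 15 of the 35 (42.9%, against 37%). Thinned trees had the highest mean in 17 of the 35 (48.6%, against 31% of the 15777), shaded trees in 16 (45.7%, against 30.9%) and control trees in 2 (5.71%, against 37.9%). Both thinned libraries were above both control libraries in 4 of the 35 (11.4%, against 7.85%). Thinned May replicate 2 was the highest library in 18 of the 35 (51.4%, against 27.5%), and shaded replicate 2, of the same set, in 10 (28.6%, against 8.84%). Their pairwise correlation over the 6 May libraries had a median of 0.13, against 0.594 among the lower transcripts, which share components, and -0.295 between the lists. Thinned against control in May had a median of 0.24 log2 units in the higher list, 5 of the 35 had an unadjusted p under 0.05, against 8.51% of all transcripts, and 0 passed the adjusted threshold by limma. That median was 0.96 without thinned May replicate 1 and 0 without thinned May replicate 2. Within the sets it was -0.11 in that of thinned replicate 1 and 0.57 in that of thinned replicate 2, so it rested on replicate 2.

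How strongly a transcript was lower under the mesh in August went along with its place in May. In the 29 lower transcripts with an August ratio of means under 2, the shaded May mean was in the median 32.2 scaled TPM, against 44.2 in control and 25.1 in thinned trees. In the 64 with a ratio from 2 to under 4 these medians were 26.8, 35.3 and 20.6. In the 22 with a ratio of 4 or more, in 16 components, they were 16.2, 52.5 and 15.6. By the fitted difference, shaded trees were below the mean of the other treatments in 6 of 29, 24 of 64 and 18 of 22. Over all tested transcripts this share was 52.8%. In the 22 the shaded median lay near the thinned one and far below control, so the 18 are not read as a return of the August difference. These groups were made from the August values after the data had been seen, and no test was made of them.

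Seen by library, the median of the 115 lower transcripts was between 28.1 and 34.3 scaled TPM in the 4 control and thinned August libraries and 13.2 and 12.7 under the mesh. In May it was 34.7 and 43.6 in control, 24.7 and 16.3 in thinned and 29.5 and 21.6 in shaded trees. Under the mesh, both May values were above both August values in 84 of the 115 (73%, against 26.1% of the 15777), which the choice of low August values favours. In thinned trees both May values were below both August values in 72 (62.6%, against 29.7%), which the choice of high August values outside the mesh favours too. That choice applied to control trees as well, where both were below in 19 (16.5%, against 24.2%) and above in 41 (35.7%, against 27.8%). The medians of all 15777 transcripts ranged from 17.8 to 20.4 over the 12 libraries.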

How the data were processed

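Per the labels' protocols, poly(A) RNA was made into TruSeq libraries and read as paired reads of 150 bp. The protocol text speaks of maritime pine roots, whereas every tissue and organism label says fir needles. Trimmomatic, RSEM and DESeq2 are named in the submitters' processing notes, without versions. How transcripts were assembled and scaled is not stated there. What the authors deposited is a signal per transcript: columns sum to between 856638 and 1179097, and once rescaled to the TPM total, at least 99.35% of nonzero values fall on multiples of 0.01, within 0.1 of that step. They are treated as TPM times 1 factor per library, from which no reads can be recovered.

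Columns were matched to samples by description, and groups taken from titles. limma 3.58.1 in R 4.3.3 was fitted to log2(scaled TPM + 1) of the 19726 transcripts at 10 or more in 2 of 12 libraries, with 6 group means, 6 residual degrees of freedom and a trend of the variance with level. For each of 2 contrasts the p-values, two-sided, received the Benjamini-Hochberg adjustment over all transcripts fitted. The fit was tested on simulated data. Named transcripts are those with the widest August gap, the highest level, the widest May gap on either side, the nearest to the threshold and the largest components. The members, lists and tests were chosen with earlier results of these data known. Alternatives were other folds, floors, pseudocounts, filters and scalings, the May libraries alone, a replicate block, a block for the 2 sets of May libraries, and leaving out each library.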

Additional observations from a re-analysis of the deposited data

Results flagged for a closer look

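In 5 transcripts the shaded trees stood on opposite sides of the other treatments in August and in May, with both libraries each time. They are 1 of the 35 higher transcripts (2.86%, against 6.72% of the 15777 whose shaded libraries were both below all others in May) and 4 of the 115 lower ones (3.48%, against 6.53% with both above), so both shares lay below those of all transcripts. The difference between the months was not tested, since the August values chose the transcripts. The May gap given here is log2 of the nearest shaded over the nearest other value, each plus 1, taken in the May direction. TRINITY_DN1045_c0_g2 was higher under the mesh in August, at 21.2 and 29.0 scaled TPM against 13.6 or less, and lower in May, at 2.93 and 4.19 against 4.84 or more (gap 0.17). TRINITY_DN45938_c1_g1 was lower in August, at 10.02 and 7.23 against 18.6 or more, and higher in May, at 67.2 and 69.3 against 56.9 or less (gap 0.23). TRINITY_DN480_c0_g3 was at 14.3 and 7.82 against 24.8 or more in August, and at 88.9 and 117 against 80.0 or less in May (gap 0.15). TRINITY_DN10872_c0_g2 was at 7.63 and 8.28 against 13.6 or more in August, and at 29.3 and 14.4 against 14.2 or less in May (gap 0.02). TRINITY_DN4885_c1_g3 had a May gap of 0.02 as well. The fitted May differences from the mean of the other treatments were, in this order, -0.64, 0.94, 0.90, 0.92 and 0.74 log2 units, with a limma adjusted p of 0.782 in each.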

How the results depend on the processing

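The number of transcripts set apart depended on the rule. A fold of 2 left 2 higher and 30 lower, of which 0 and 1 kept the same side in May. A floor of 50 left 10 and 37, with 1 and 0 on the same side, and a floor of 5 gave 78 higher ones, with 13 higher and 4 lower on the same side. Adding 1 before the folds left 2 higher ones on the same side, and quantile normalization 3 higher and 0 lower. TPM without the library factor gave 35 higher and 139 lower, of which 28 and 109 were among the 35 and 115. Without 1 library there were 33 to 205 higher and 113 to 461 lower transcripts, and 5 to 20 and 2 to 16 stayed on the same side in May. Leaving out a shaded, control or thinned August library leaves fewer values to pass. Leaving out a May library does so for the same side in May. Into the choice of transcripts the May values enter only through the level limit and the overlap of months. The lowest numbers came without thinned May replicate 2, and all 33 and 113 of these were among the 35 and 115.

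In May, thinned against control gave 0 calls by limma, 2 with a filter of 50 and 0 to 723 without 1 library, and shaded against the others 0, and 0 to 624 without 1 library, above 0 only without thinned May replicate 1. The medians of the shaded difference ranged without 1 library from -0.30 to 0.42 in the higher and from -0.10 to 0.25 in the lower list, and with a filter of 50 the higher list's was -0.48 over 11 transcripts. The lower list's thinned minus control median kept its sign in every setting run, from -1.17 to -0.59 without 1 library. Its transcripts at an unadjusted p under 0.05 by limma numbered 33 of 51 with a filter of 50, where 612 of all 4834 tested transcripts had one. In the May libraries alone they numbered 40, where 918 of all 19726 had one. The 15 differences of single transcripts that were refitted kept their sign in each setting run. These transcripts had been picked for their separation in May, so a kept sign was largely set by that choice.

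Same-numbered libraries did not deviate together in all pairs (r from -0.707 to 0.629), so the numbers were not taken to pair them. With the replicate block 0 transcripts were called in either May comparison. For thinned against control, 61 of the 115 lower transcripts then had an unadjusted p under 0.05 by limma, as had 1339 of all 19726. With the 2 sets of May libraries as a block 0 were called and 79 of the 115 had one. Over all 19726 transcripts 2538 had one with that block, against 1679 in the main fit, so the number rose in the whole table too. Unknown depth limits all low values.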
